A study of Mus musculus with 16 samples.

Results

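The expression of all measured genes was compared between 6 mammary tumours from mice carrying the STAT5Δ750 transgene and 3 normal mammary glands. These 9 arrays, chosen by their titles, are part of a series of 16. The other 7 held tumours with STAT5ca, a constitutively active STAT5, and enter here only in a closing comparison and in an alternative fit. STAT5Δ750 is a STAT5 that lacks its C-terminus, and every mouse, the normal ones included, had the FVB/N background. Tumours were snap-frozen after excision and total RNA was extracted with TRIZOL, labelled with biotin and hybridised to Affymetrix Mouse Genome 430A 2.0 arrays. The labels give the glands as normal mammary gland with disease state normal, and the tumours as STAT5Δ750 in genotype with disease state tumor. The promoter of the transgene, the age and reproductive stage of the mice, the histology of the tumours and the number of transgenic lines are not given in the sources used here. Nothing says that each tumour came from a separate mouse, so p-values measure the spread between these samples.

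STAT5A and STAT5B are transcription factors that prolactin, growth hormone and several cytokines activate through the kinase JAK2. Phosphorylated STAT5 forms dimers, binds the palindrome TTCNNNGAA in DNA and, in mammary epithelium, drives the growth of milk-forming alveoli, the survival of their cells and the transcription of milk protein genes. Its C-terminus holds the transactivation domain, and forms that lack it bind DNA but activate many target genes poorly.

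Arrays are named by the number in their titles, glands 1, 4 and 6 and tumours with a T (T92 for STAT5Δ750_92). Levels are given as log2 of the scaled signal plus 8, so that a signal of 0 gives 3, and changes as the tumour mean minus the gland mean on that scale, with the standard error of the linear model (limma, 6 tumours against 3 glands). A gene was tested where its deposited signal passed 35.4, the filter level, on at least 3 of the 9 arrays. Of 9006 genes tested, 2858 (31.7%) passed at an adjusted p under 0.05, 1475 higher (16.4%) and 1383 lower (15.4%). In 3046 genes (33.8%) the 6 tumours and the 3 glands did not overlap, 1688 (18.7%) with every tumour above every gland and 1358 (15.1%) with every tumour below. The median change of all genes was 0.07. The split between the directions depended on the scaling. With the deposited scale kept 1184 genes were higher and 1722 lower, of 2906 that passed. Quantile normalization called 1329 higher and 1636 lower, of 2965. When 1 gland was left out, 1733 genes passed without gland 1 and 1684 without gland 4. Counts of list members of 1 or more that moved by over 1.5 times without an array are given below with that array. A count of 0 became 1 for endothelial genes that rose (without T254, T165 or T160), collagen genes that fell (without gland 6, T178 or T160), milk genes that fell (without T178), luminal progenitor genes that fell (without T92, T178 or T160) and endoplasmic reticulum genes that fell (without T254).

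Genes of several other tissues were lower in the tumours. Of genes of skeletal muscle 67 of 76, of white adipocytes 32 of 44, of T cells 45 of 48 and of B cells 24 of 31 were lower in the tumours, against 15.4% of all genes, and these losses are not described further. In whole tissue, fewer cells of a type and less RNA per cell cannot be told apart. T254 stood apart in the lymph node genes, with a mean log2 level over 15 lymph node macrophage and dendritic genes of 6.32, against 4.18 to 4.86 in the other 5 tumours and 7.14 to 7.62 in the glands. It also carried genes of salivary gland. Amy1, salivary amylase, was at 13.15 on that array, at 3.32 to 6.40 in the other tumours and at 9.10 to 9.57 in the glands, and Bpifb1, a secreted protein of mucosal glands, was at 9.98, 3.54 to 6.15 and 4.27 to 4.46. Both were picked after their values were seen. The mean level over 11 salivary and exocrine genes was 9.55 in T254, 5.42 to 7.42 in the other tumours and 6.37 to 6.82 in the glands. Not every member was highest there. Smr2 was at 5.15 in T254, within the range of the other tumours and below the glands (7.49 to 9.43). Aqp5 was at 9.63 there, below T165, T174 and T160. The number of genes that passed was 2862 without T254. The beta-actin signal near the 3' end over that near the 5' end, a ratio that rises with RNA degradation, was 1.07 to 1.25 in the glands and 1.27 to 3.52 in the tumours, and with it as a covariate 1913 genes passed. The Gapdh ratio, at 0.841 to 1.03 and 0.757 to 0.864, was below every gland in 3 of 6 tumours, and with it 1095 passed. The part of RNA quality in the changes was not tested beyond these covariates, and each gene named below that lost its call with one of them, or in the fit of all 16 arrays, is listed at the end of its paragraph, and so are those lost with another offset, filter, probe set rule or test.

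The largest rises included those of Mmp13, of the mitosis genes Cdk1 and Ube2c and of the desmosome gene Perp. Mmp13, collagenase 3, which cuts fibrillar collagen, was at 3.81, 3.56 and 3.28 in the glands and 5.58 to 10.34 (median 8.76) in the tumours, a change of 4.76 ± 0.92 (adjusted p = 0.00398). Every tumour lay above every gland, with T178 and T254 lowest. Dyrk3, a dual-specificity kinase, was at 4.82, 3.51 and 3.67 in the glands and 6.88 to 9.36 (median 7.27) in the tumours, a change of 3.73 ± 0.58 (adjusted p = 0.00146). Phlda2, an imprinted gene that restrains placental growth, changed by 3.15 ± 0.67, S100a14, an epithelial calcium-binding protein, by 3.04 ± 0.62, Tmem54 by 3.04 ± 0.47 and Olfml3, a secreted matrix protein, by 3.02 ± 0.65. In these genes other than Olfml3 all 3 glands lay below the filter level of 35.4, so that the size of the change depended on the offset. With an offset of 1 Mmp13 changed by 6.07 and Phlda2 by 5.05, and with an offset of 35.4 by 3.22 and 1.66. Gpx2, a glutathione peroxidase of epithelia, at 3.92 ± 1.23 and Igfbp2, which binds insulin-like growth factors, at 3.81 ± 1.29 also ranked among the largest rises. Gpx2 did not pass when any 1 gland, T92 or T174 was left out (adjusted p up to 0.105), nor Igfbp2 when any 1 gland, T254, T165, T174 or T160 was (up to 0.145). Mmp13, S100a14, Olfml3, Gpx2 and Igfbp2 did not pass with the actin ratio as a covariate, nor Phlda2, Olfml3, Gpx2 and Igfbp2 with the Gapdh ratio, nor Gpx2 in the fit of all 16 arrays. Gpx2 and Igfbp2 did not pass with an offset of 35.4, nor Igfbp2 without the filter.

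**Figure D1:**
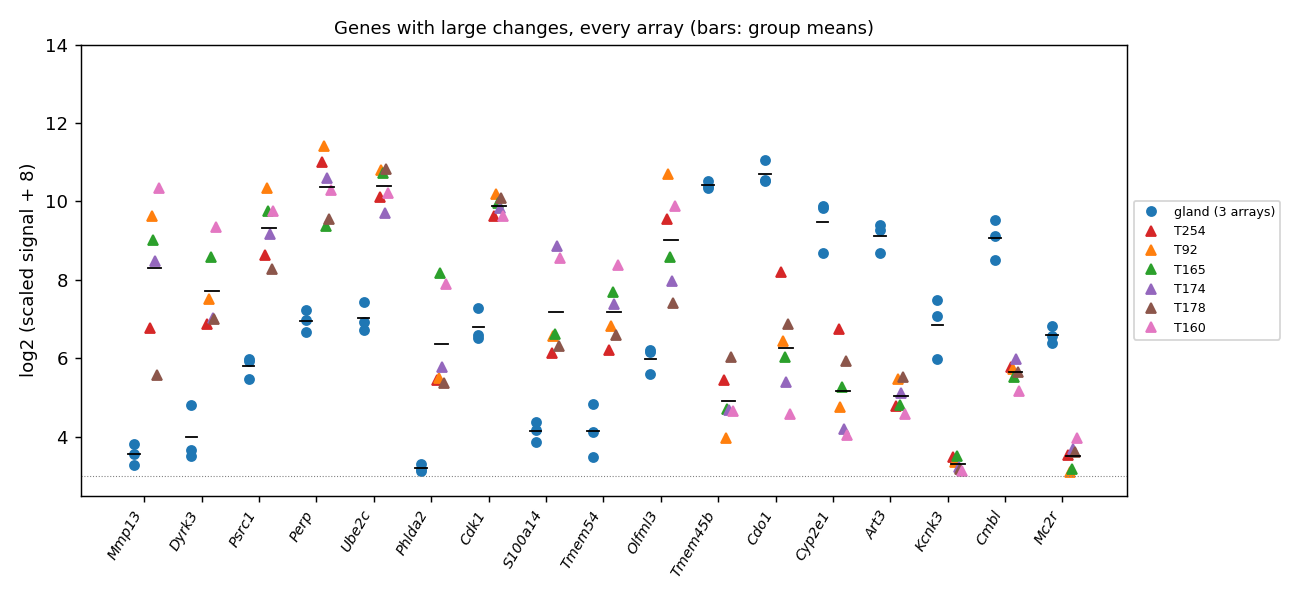
Levels of 17 genes with large changes on each array, as log2 of the scaled signal plus 8. Circles are the 3 glands, triangles the 6 tumours, bars the group means and the dotted line a signal of 0. The first 10 genes lay higher in every tumour than in every gland, Mmp13 by 4.76 on average, and the last 7 lower, Tmem45b by -5.50.

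Among the large falls outside the genes of muscle, fat and lymphocytes was that of Tmem45b, a transmembrane protein, which was at 10.51, 10.35 and 10.40 in the glands and 3.96 to 6.04 (median 4.70) in the tumours, a change of -5.50 ± 0.39 (adjusted p = 0.000138). The glands differed by less than 0.2 from one another. Cyp2e1, a cytochrome P450 that oxidises small molecules, changed by -4.31 ± 0.59, Ephx2, the soluble epoxide hydrolase, by -3.27 ± 0.44 and Cdo1, which oxidises cysteine, by -4.45 ± 0.65. Kcnk3, a potassium leak channel, was at 7.49, 7.08 and 5.98 in the glands and 3.13 to 3.51 (median 3.29) in the tumours, none of which passed the filter level. Mc2r, the receptor for the hormone ACTH, changed by -3.08 ± 0.23, also to below that level in every tumour, and Cmbl, Chst1, Lims2, Sytl2 and Mef2c, a transcription factor of muscle and other lineages, changed by -3.42 ± 0.26, -2.91 ± 0.24, -2.15 ± 0.19, -2.17 ± 0.18 and -3.63 ± 0.32. Several of these genes are also known from fat or muscle, so the losses of those tissues stand beside them. Marco, a scavenger receptor of macrophages, changed by -7.09 ± 1.10 and was at 8.41 in T254 against 3.07 to 3.17 in the other tumours.

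The gene lists moved apart, as the plot of the share of members that passed shows. Among the lists plotted, and against 16.4% of all genes higher and 15.4% lower, mitosis, pan-epithelial genes and DNA replication had the largest shares higher. The largest shares lower among them were in JAK-STAT and cytokine receptor genes, fatty acid oxidation and hormone-sensing luminal cells. Skeletal muscle, white adipocytes, T cells, B cells and endothelium, which are not plotted, had larger ones.

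**Figure D2:**
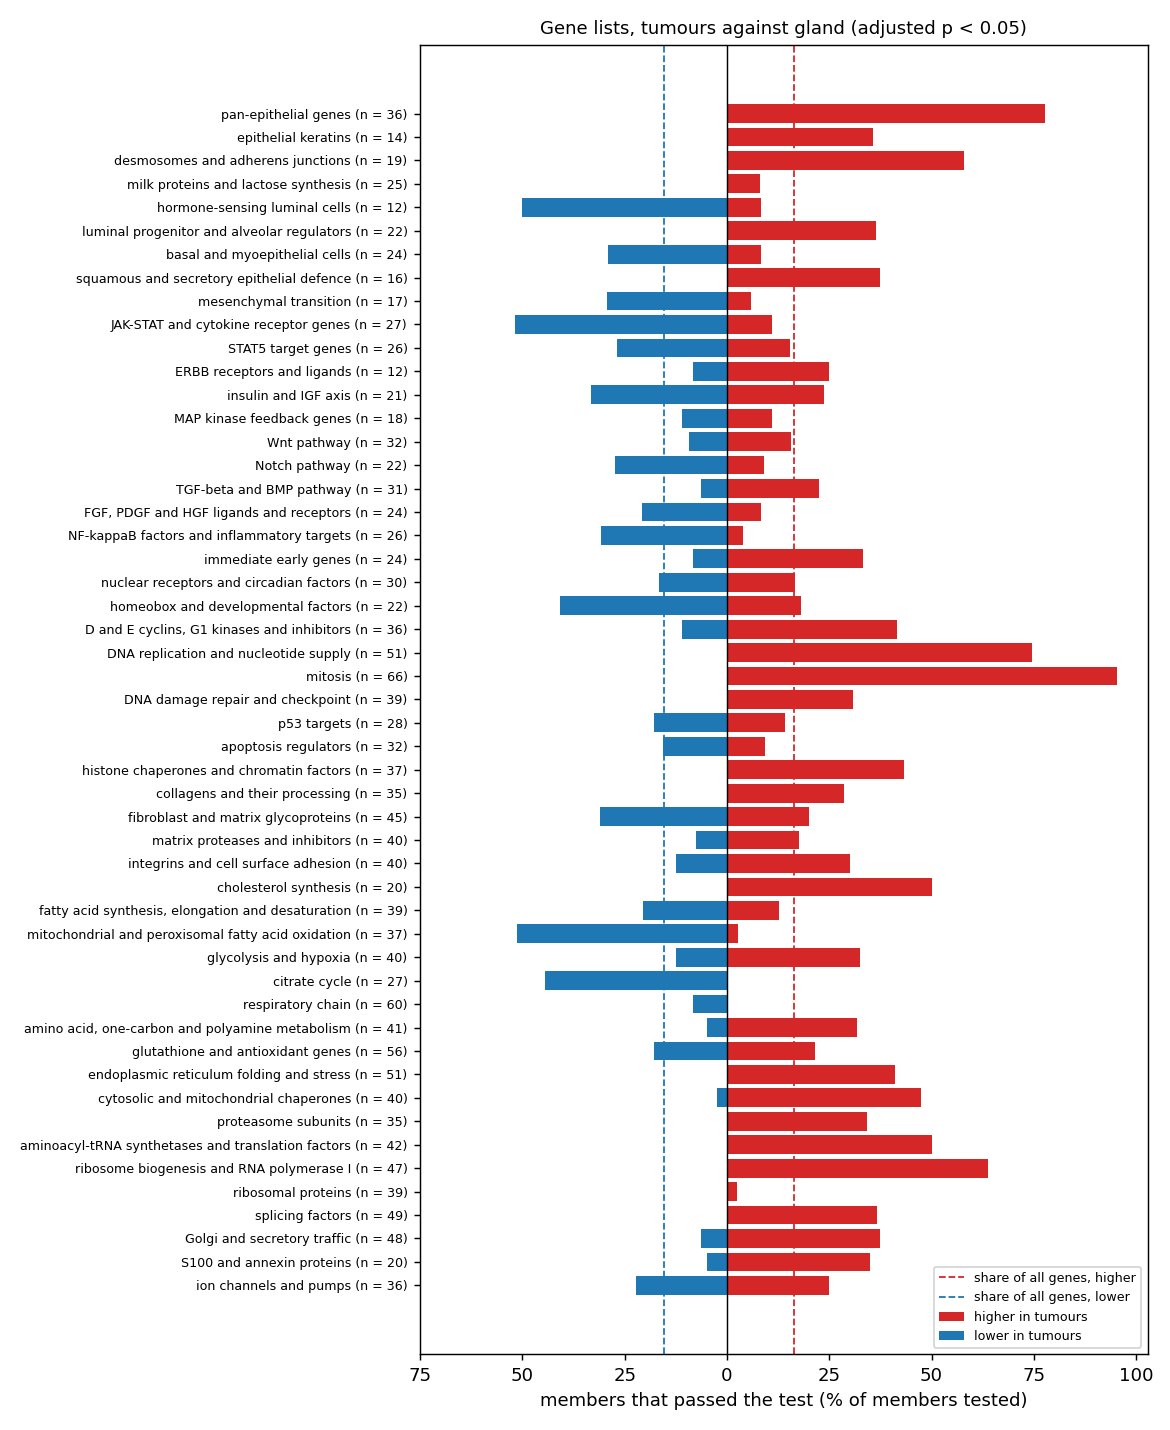
Share of the tested members of each gene list that passed the test, in percent, higher in tumours to the right and lower to the left, with the number of members tested in brackets and dashed lines at the shares of all genes (16.4% higher, 15.4% lower). 63 of 66 mitosis genes were higher, and 14 of 27 JAK-STAT and cytokine receptor genes lower.

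The list counts depended on the RNA ratios and on the arrays in the fit. With the actin ratio, with the Gapdh ratio and in the fit of all 16 arrays, mitosis genes that rose numbered 55, 56 and 60, and those of DNA replication 24, 24 and 31. The pan-epithelial genes that rose numbered 23, 14 and 6, those of junctions 2, 8 and 4, those of ribosome biogenesis 19, 8 and 20, those of folding in the endoplasmic reticulum 9, 1 and 16, those of the chaperones 7, 6 and 14, those of the proteasome 5, 3 and 8, those of splicing 10, 5 and 13 and those of cholesterol synthesis 3, 4 and 6. Of genes that fell there were 11, 4 and 9 in the JAK-STAT list, 4, 1 and 5 in hormone-sensing cells, 6, 5 and 8 in the homeobox list, 12, 6 and 19 in fatty acid oxidation, 4, 1 and 7 in the citrate cycle and 17, 10 and 18 in endothelium. Citrate cycle genes that fell numbered 18 with the deposited scale kept and as many after quantile normalization, against 12, and homeobox genes 2 under a stricter filter, against 9. Proteasome genes that rose numbered 8 under both of these scalings. In the same 3 fits the genes that rose numbered 13, 9 and 16 for tRNA synthetases and translation factors, 6, 5 and 10 for glycolysis and hypoxia, 8, 4 and 9 for amino acids, 3, 6 and 6 for collagens, 11, 9 and 11 for chromatin factors, 9, 12 and 13 for cyclins and G1 kinases, 6, 8 and 8 for repair, 4, 4 and 2 for luminal progenitors and 1, 2 and 5 for fibroblast genes. Those that fell numbered 7, 5 and 6 for fibroblast genes, 3, 2 and 4 for basal cells, 3, 3 and 3 for pericytes, 6, 3 and 3 for the IGF axis, 6, 5 and 5 for NF-kappaB and 5, 2 and 4 for fatty acid synthesis. The smaller counts that rose were 1, 1 and 2 for STAT5 targets, 3, 4 and 5 for TGF-beta, 1, 1 and 3 for Wnt, 0, 1 and 2 for the IGF axis, 1, 0 and 0 for nuclear receptors, 3, 1 and 1 for fatty acid synthesis, 2, 1 and 2 for macrophages and 1, 1 and 0 for ERBB genes.

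Epithelial genes rose together. Of 36 pan-epithelial genes 28 rose and 0 fell, against 16.4% of all genes higher and 15.4% lower, with a median change of 1.56. Krt8, a keratin of simple epithelium, was at 10.55, 9.47 and 10.64 in the glands and 11.88 to 12.45 (median 12.18) in the tumours, a change of 1.94 ± 0.27, and its partner Krt18 changed by 2.07 ± 0.25. Cdh1, the adhesion protein E-cadherin, changed by 1.5 ± 0.23, Epcam by 1.05 ± 0.22, Lsr, a protein of tricellular junctions, by 2.41 ± 0.31 and Rab25, an epithelial trafficking GTPase, by 2.64 ± 0.34. The regulators of epithelial identity Grhl2 and Ehf and the splicing factors Esrp1 and Esrp2 changed by 1.71 ± 0.22, 1.85 ± 0.34, 1.64 ± 0.32 and 1.91 ± 0.34. Of 19 genes of desmosomes and adherens junctions 11 rose, 5 without gland 4 and 6 without gland 6, with Perp, a desmosome protein, at 3.42 ± 0.44. Zeb1 and Prrx1, factors of mesenchyme, changed by -1.94 ± 0.38 and -1.72 ± 0.31. Of the 17 genes of mesenchymal transition to which they belong 5 fell and 1 rose, with a median of -0.20, against 15.4% of all genes lower. Those that fell numbered 2 without gland 1 or gland 4, and those that rose 2 without T92 or T178. With the actin ratio, the Gapdh ratio and all 16 arrays 3, 0 and 3 fell. Epcam, Esrp1, Esrp2, Zeb1 and Prrx1 did not pass with the Gapdh ratio, nor Krt8, Krt18, Epcam, Rab25, Grhl2, Ehf, Esrp1 and Esrp2 in the fit of all 16 arrays. Krt8, Epcam, Rab25, Ehf, Esrp1 and Esrp2 did not pass in a test of each gene alone with unequal variances.

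The classes of epithelial cells differed in their counts, which stand against 16.4% of all genes higher and 15.4% lower. Of 12 genes of hormone-sensing luminal cells 6 fell and 1 rose (0 without gland 1, gland 4, T165 or T174), median -1.23. Tnfsf11, which encodes RANKL, the paracrine signal of progesterone, was at 7.69, 6.85 and 5.96 in the glands and 3.67 to 5.46 (median 4.51) in the tumours (-2.38 ± 0.48), with no tumour above the filter level. Tph1, which makes serotonin, changed by -2.35 ± 0.46, Tbx3, a factor of luminal lineage, by -1.43 ± 0.25 and Stc2, a secreted glycoprotein, by -1.04 ± 0.21, while the other tested probe set of Stc2 had 0.16. Tph1 and Tbx3 had no tumour above the filter level either, so they entered the test through the glands. The receptor genes Esr1, Pgr and Prlr were not tested. Of 14 keratins 5 rose, 3 without gland 4 or gland 6, and of 16 genes of squamous and secretory defence 6, 2 without gland 1 and 1 without gland 4. Neither list had a member that fell, and their medians were 2.01 and 2.12. Of 22 genes of luminal progenitors and alveolar regulators 8 rose and 0 fell, median 1.05, with 5 higher without gland 1 and 5 without gland 4, among them Gabrp, a GABA receptor subunit, at 2.76 ± 0.57 and Tfap2a, a transcription factor, at 1.99 ± 0.25. Elf5, the alveolar regulator that acts with STAT5, was at 10.33, 9.59 and 11.10 in the glands and 9.09 to 12.25 (median 11.35) in the tumours and did not pass (0.78 ± 0.65, adjusted p = 0.383). Of 24 basal and myoepithelial genes 7 were lower and 2 higher, with 4 lower without gland 1 and 3 without gland 4. The count of higher basal genes was 0 without any 1 gland and 1 without T92, T174 or T160. Mylk, the kinase of smooth muscle myosin, changed by -1.74 ± 0.37, and 6 of 15 genes of pericytes and smooth muscle also fell. Krt14, the basal keratin, was at 6.63, 6.14 and 6.56 in the glands and 5.70 to 11.17 (median 8.44) in the tumours, which spread on both sides of the glands. Tnfsf11 and Gabrp did not pass with the actin ratio as a covariate, nor Tnfsf11, Tbx3, Stc2, Gabrp and Mylk with the Gapdh ratio, nor Stc2 and Tfap2a in the fit of all 16 arrays. Stc2 did not pass with probe sets averaged per gene, nor Tnfsf11 and Tph1 in a test of each gene alone with unequal variances.

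The summed epithelial signal did not overlap between the groups. The mean level over 36 pan-epithelial genes was 7.34 to 8.22 in the glands and 8.95 to 9.58 in the tumours. When each array was set against that mean, 7237 genes (80.4%) passed, 7188 genes (79.8%) of them as lower and 49 (0.544%) as higher. Of the 36 reference genes 28 rose, so a relative fall of most other genes is built into this measure. Relative to the pan-epithelial genes 10 of 11 hormone-sensing genes were lower. Milk genes, at 15 of 24, and basal genes, at 16 of 24, were lower less often than all genes. So were junction genes, at 4 of 17, and squamous and secretory defence genes, at 3 of 16. None of these shares was tested against that of all genes. Tph1 was -3.98 ± 0.41 relative to the epithelial mean and Tnfsf11 -4.00 ± 0.53, against a median of -1.55 for all genes.

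JAK-STAT and cytokine receptor genes were more often lower than higher in the tumours. Of 27 genes of these receptors, of JAK kinases, STAT factors and their regulators 14 fell and 3 rose, median -0.81, against 15.4% of all genes lower. Stat5b was at 9.44, 9.59 and 9.08 in the glands and 7.33 to 8.77 (median 8.17) in the tumours, a change of -1.28 ± 0.29 (adjusted p = 0.00898), and every tumour lay below every gland. With the mean of its probe sets the change was -0.73 (adjusted p = 0.0895). Stat5a was at 9.0, 8.63 and 9.19 and 6.82 to 9.22 (median 7.50), where only T178 reached the level of the glands (-1.22 ± 0.45, adjusted p = 0.0621, not passed). It passed narrowly under the deposited scaling (adjusted p = 0.0498) and with array weights (adjusted p = 0.00797). Whether these probe sets also detect RNA of the transgene is not given in the sources used here. Jak2 was at 8.98, 9.07 and 8.57 in the glands and 7.54 to 8.21 (median 7.98) in the tumours (-0.93 ± 0.21). Stat3, which carries the signals of the interleukin 6 family, was at 9.57, 9.90 and 9.91 and 10.12 to 10.55 (median 10.32) and passed narrowly (0.53 ± 0.18, adjusted p = 0.0497). Its call was lost when any 1 gland, T92, T165, T174 or T160 was left out, and under the deposited scaling and quantile normalization (adjusted p up to 0.214). Sh2b2, an adaptor that binds JAK2, changed by -1.58 ± 0.28. Of the 14 that fell, at least 7 are known chiefly from blood cells, and the T and B cell lists fell beside them. They include Ptprc (CD45, -2.91 ± 0.48), Ptpn6 (-1.76 ± 0.21) and Stat4 (-3.46 ± 0.62), and, picked after their values were seen, Il7r (-3.32 ± 0.65), Il2rb (-2.76 ± 0.57), Csf2rb (-2.64 ± 0.54) and Jak3 (-0.71 ± 0.22), 4 genes whose own calls were not followed through the alternatives. The receptor genes Epor (-0.81 ± 0.27) and Ghr (-1.51 ± 0.47), picked likewise and not followed either, also fell. Stat5b and Stat3 did not pass with the actin ratio as a covariate, nor Stat5b, Jak2, Stat3 and Sh2b2 with the Gapdh ratio, nor Stat3 and Ptpn6 in the fit of all 16 arrays. Stat5b did not pass with probe sets averaged per gene, nor Stat3 in a test of each gene alone with unequal variances, with an offset of 1 or without the filter.

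STAT5 targets were higher in some cases and lower in others. Cish, an inhibitor of cytokine receptors and a direct STAT5 target, holds a pair of TTCNNNGAA palindromes at its start. They are in capitals in the stretch from 100 bases before to 25 bases after the start (RefSeq, GRCm38.p6, chr9:107296559-107296683, plus strand), shown because these letters are where STAT5 is known to bind:
Cish: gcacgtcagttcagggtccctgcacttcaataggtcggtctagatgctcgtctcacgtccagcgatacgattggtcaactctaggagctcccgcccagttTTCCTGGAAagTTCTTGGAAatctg
Of 29 promoters of the target genes 17.2% hold TTCNNNGAA (a palindrome in its fixed letters, searched on both strands of 300 bases), against 8.3% of all 32851 promoters. Cish was at 7.70, 7.89 and 8.44 in the glands and 6.83 to 8.41 (median 7.74) in the tumours, which overlapped, and did not pass (-0.26 ± 0.35, adjusted p = 0.603). Socs2, another inhibitor in the same family, was at 8.79, 8.95 and 8.11 and 7.27 to 11.53 (median 9.74) (0.99 ± 0.92, adjusted p = 0.439), with T165, T174 and T160 above 10 and the other 3 within or below the range of the glands. Of 26 STAT5 targets 4 were higher and 7 lower, the former near the 16.4% of all genes that were higher, the latter against 15.4% lower. The count of higher targets was 2 without gland 1, 1 without gland 4 and 2 without T92, T174 or T178. Ccnd1, cyclin D1, which starts the cell cycle, was at 9.50, 8.50 and 8.60 in the glands and 10.19 to 12.69 (median 10.93) in the tumours (2.33 ± 0.51, adjusted p = 0.00724), all of which lay above the glands. Myc, a growth-promoting transcription factor, was at 9.11, 8.34 and 8.55 in the glands and 9.45 to 10.76 (median 9.90) in the tumours (1.29 ± 0.31). Myc lost its call without gland 4 (adjusted p = 0.0589). Pim2, a survival kinase, Igf1, the growth factor that growth hormone induces, Lifr, the receptor of leukemia inhibitory factor, and Tnfrsf13b, a receptor of B cells, changed by -1.72 ± 0.25, -2.08 ± 0.39, -2.61 ± 0.35 and -2.94 ± 0.59. The other targets that fell were Ccnd2 (-1.78 ± 0.40), Bcl6 (-1.30 ± 0.34) and Mcl1 (-0.84 ± 0.20), whose calls were not followed through the alternatives. Lymphocyte and fat genes fell beside these 7, and their part in the falls was not tested. Ccnd1 did not pass with the actin ratio as a covariate, nor Myc with the Gapdh ratio. Pim2 did not pass in a test of each gene alone with unequal variances.

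Milk protein genes did not move as a list. Of 25 genes of milk proteins and lactose synthesis 2 rose, 1 without gland 1 or gland 4, and 0 fell, with a median of 0.16. Both shares lie below the 16.4% higher and 15.4% lower of all genes. Csn2, beta-casein, was at 12.53, 12.15 and 12.85 in the glands and 12.12 to 13.15 (median 12.76) in the tumours (0.16 ± 0.28, adjusted p = 0.69). Wap, whey acidic protein, was at 8.06, 5.28 and 12.65 in glands 1, 4 and 6 and 4.64 to 13.16 (median 9.75) in the tumours, so that both groups spread over more than 7 log2 units and a change of the mean could not be told (0.24 ± 2.06, adjusted p = 0.94). Lcn2, a secreted iron-trapping protein of stressed epithelium, was at 10.08, 10.29 and 11.93 in the glands and 12.38 to 12.93 (median 12.67) in the tumours, all of which lay higher (1.90 ± 0.36). Lcn2 did not pass with the Gapdh ratio or in the fit of all 16 arrays. Lcn2 did not pass in a test of each gene alone with unequal variances.

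**Figure D3:**
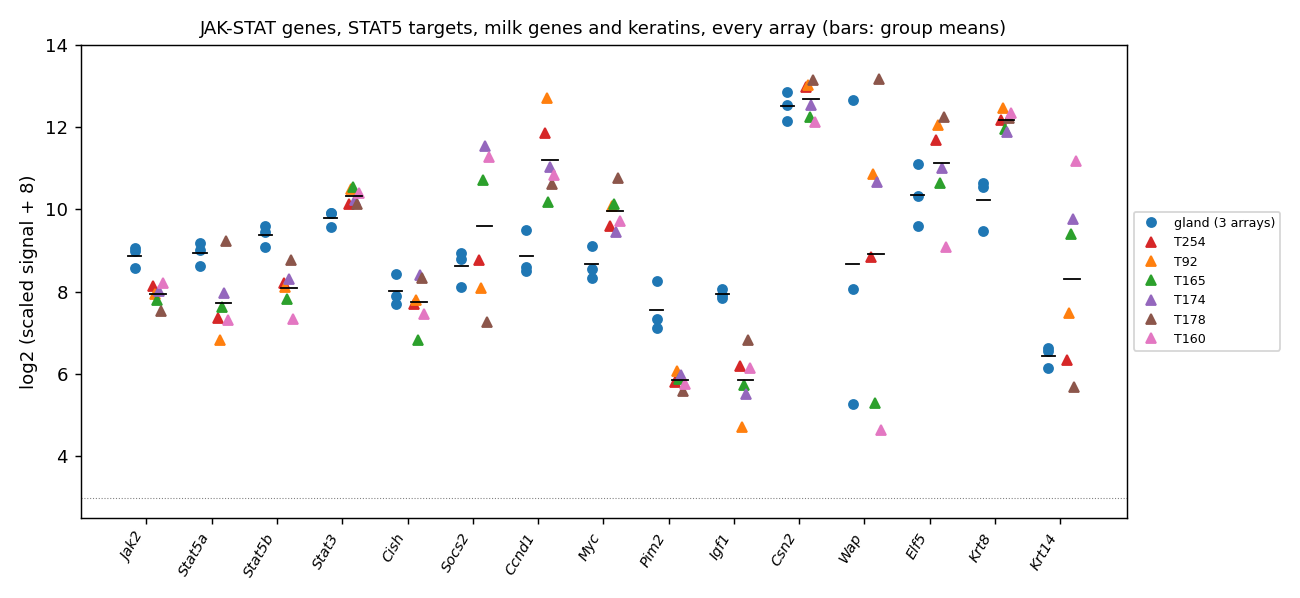
Levels of JAK-STAT genes, STAT5 targets, milk proteins and keratins on each array, as log2 of the scaled signal plus 8, with circles for the 3 glands, triangles for the 6 tumours and bars for the group means. Stat5b, Jak2, Pim2 and Igf1 lay lower in all 6 tumours and Ccnd1, Myc and Krt8 higher, while Cish, Csn2, Wap and Krt14 overlapped.

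Growth factor genes changed in both directions, and the counts below stand against 16.4% of all genes higher and 15.4% lower. Erbb2 and Erbb3, partners in the receptor of neuregulins, rose by 1.01 ± 0.23 and 1.48 ± 0.24, and Nrg4, a neuregulin, was at 7.34, 6.75 and 6.60 in the glands and 4.11 to 4.83 (median 4.39) in the tumours (-2.48 ± 0.24, adjusted p = 0.000276), none above the filter level. Of 12 ERBB genes 3 rose and 1 fell, 2 without T254. White adipocyte genes, of which 32 of 44 fell, stand beside the fall of Nrg4, and their part in it was not tested. In the insulin and IGF axis 7 of 21 genes fell and 5 rose. The count of higher genes was 1 without gland 1 or gland 4, 2 without T174 or T160 and 3 without gland 6, T92 or T165. Grb10 and Grb14, adaptors that damp the insulin receptor, changed by -1.26 ± 0.21 and -2.49 ± 0.40, and the kinase Akt2 by -1.08 ± 0.21. Of 24 genes of the FGF, PDGF and HGF systems 5 were lower, 3 without gland 4, among them Fgf13 (-3.34 ± 0.53), Vegfd, a growth factor of lymph vessels (-1.69 ± 0.24), and Pdgfra, a receptor of fibroblasts (-1.63 ± 0.32). Vegfd had no tumour above the filter level. Of 18 MAP kinase feedback genes 2 rose and 2 fell, both below the shares of all genes. The count that rose was 1 without gland 4, gland 6, T165, T174 or T160, and 4 fell without T160. With the actin ratio, the Gapdh ratio and all 16 arrays 1, 1 and 1 rose and 2, 0 and 2 fell. Of this list Ier3, an early response gene, was at 7.90, 7.84 and 7.85 in the glands and 9.36 to 11.02 (median 10.62) in the tumours (2.51 ± 0.39). The MAP kinase phosphatases Dusp1 and Dusp2 changed by -1.21 ± 0.26 and -2.34 ± 0.48. Erbb2 did not pass with the actin ratio as a covariate, nor Erbb2, Akt2, Pdgfra, Dusp1 and Dusp2 with the Gapdh ratio, nor Erbb2, Erbb3, Grb10 and Pdgfra in the fit of all 16 arrays. Akt2 did not pass in a test of each gene alone with unequal variances.

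Genes of the Wnt, Notch, TGF-beta and NF-kappaB pathways changed in both directions, as did all genes, with 16.4% higher and 15.4% lower. Of 32 Wnt genes 5 rose and 3 fell, near the shares of all genes, and the count that rose was 1 without gland 1, 2 without gland 4 or T165 and 3 without gland 6 or T174. The receptor genes split, Fzd4 at -1.98 ± 0.29 and Fzd6 at 1.18 ± 0.26, and so did the antagonists, Frzb at -2.75 ± 0.49 and Nkd2 at 3.33 ± 0.82. Fzd4 and Frzb had no tumour above the filter level and Nkd2 no gland. These 3 entered the test through the group where they were higher, and the size of their changes depends on the offset. Nkd2 lost its call without gland 1 (adjusted p = 0.0582). Of 22 Notch genes 6 fell, 3 without gland 4, and 2 rose. Dtx1, a Notch regulator of lymphocytes, Mfng, which modifies the receptor with sugar, and Psen2, a presenilin, changed by -2.70 ± 0.42, -2.23 ± 0.29 and -1.47 ± 0.29, and Rbpj, the DNA-binding partner of Notch, by 1.24 ± 0.28. Of 31 TGF-beta and BMP genes 7 rose, but 2 without gland 1 or gland 4, 3 without T165 and 4 without gland 6, T92 or T160. Tgif1, a repressor of the pathway, was at 7.43, 6.98 and 7.37 in the glands and 8.58 to 9.31 (median 9.12) in the tumours (1.80 ± 0.21), and the receptor Acvr1b changed by 1.03 ± 0.22. Of 26 NF-kappaB genes 1 rose and 8 fell, and the count that fell was 5 without gland 1 and 4 without gland 4. The count that rose was 0 without gland 1, gland 4, T174 or T160 and 3 without T92 or T178. Relb, Traf1, Birc3 and Ltb, most of them strong in lymphocytes, changed by -1.74 ± 0.32, -3.31 ± 0.45, -2.12 ± 0.29 and -4.74 ± 0.85. Fzd6 did not pass with the actin ratio as a covariate or in the fit of all 16 arrays, nor Fzd6, Frzb, Nkd2 and Rbpj with the Gapdh ratio.

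Of 10 Hox genes tested, 8 were lower in the tumours, against 15.4% of all genes, and 2, Hoxa3 and Hoxa5, did not pass. These factors give cells their position along the body and are expressed in gland stroma and epithelium. Of 22 homeobox and developmental factors 9 fell, between 6 and 9 of them without any 1 array, and 4 rose, 2 without any 1 gland. A gene could enter the test through the 3 glands alone. None of the 8 Hox genes that fell had 3 tumours above the filter level, so all 8 needed the glands to enter. Hoxb6, Hoxc4 and Hoxc8 had no tumour above it. The count of Hox genes that fell thus depends on a filter that was met through the group where they were high. Hoxd8 was at 8.46, 8.61 and 7.92 in the glands and 4.99 to 5.75 (median 5.31) in the tumours, a change of -3.00 ± 0.23 (adjusted p = 0.000138). Hoxd9 changed by -3.15 ± 0.43 and Hoxc4 by -2.24 ± 0.32. Picked after their values were seen to account for the other Hox genes, Hoxa9 changed by -2.38 ± 0.52, Hoxc8 by -1.71 ± 0.46, Hoxb6 by -1.56 ± 0.23, Hoxc6 by -1.10 ± 0.27 and Hoxb2 by -1.04 ± 0.34. Hoxa5, also picked after its values were seen, was at 7.03, 7.27 and 7.07 in T165, T174 and T160, above the glands (6.28 to 6.72), and at 3.32, 3.31 and 4.16 in T254, T92 and T178, below them (a change of -1.19 ± 0.99, adjusted p = 0.386). Hoxa3, picked likewise, had a change of -0.83 ± 0.55 (adjusted p = 0.274), with T174 above every gland. Hoxc8 and Hoxb2 lost their calls without any 1 gland, Hoxb2 also without any 1 tumour but T160, and Hoxc6 without gland 4. In the opposite direction Foxc1, a forkhead factor, was at 5.90, 5.16 and 5.77 in the glands and 7.91 to 8.71 (median 8.31) in the tumours, a change of 2.71 ± 0.26 (adjusted p = 0.000276), and the groups were over 2 log2 units apart. Sox10, a factor of neural crest and of mammary progenitors, rose by 2.02 ± 0.29. Among 30 nuclear receptors and circadian factors 5 rose and 5 fell, near the 16.4% and 15.4% of all genes. Without gland 1 or gland 4 the counts were 1 that rose and 3 that fell, and 3 rose without gland 6, T92, T174 or T160. Nr1h3, the sterol receptor LXR-alpha, was at 6.97, 7.01 and 6.98 in the glands and 4.79 to 5.56 (median 5.14) in the tumours (-1.81 ± 0.21), and Rxrg, Nr2f2 and Nr2f6 changed by -2.65 ± 0.42, -1.19 ± 0.26 and 0.85 ± 0.18. Klf2, a factor of resting lymphocytes and endothelium, changed by -2.55 ± 0.44. Probe sets for the oestrogen and progesterone receptors Esr1 and Pgr did not pass the filter, and Prlr had no probe set with 1 symbol. Hoxc8, Hoxc6, Hoxb2 and Nr2f6 did not pass with the actin ratio as a covariate, nor Hoxa9, Hoxc8, Hoxc6, Hoxb2, Rxrg, Nr2f2 and Nr2f6 with the Gapdh ratio, nor Hoxb2, Sox10 and Nr2f6 in the fit of all 16 arrays. Nr2f2 did not pass with probe sets averaged per gene, nor Hoxc4 in a test of each gene alone with unequal variances, nor Hoxc8 with an offset of 1, nor Hoxb2 with an offset of 35.4, without the filter or with a trend in the variance.

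**Figure D4:**
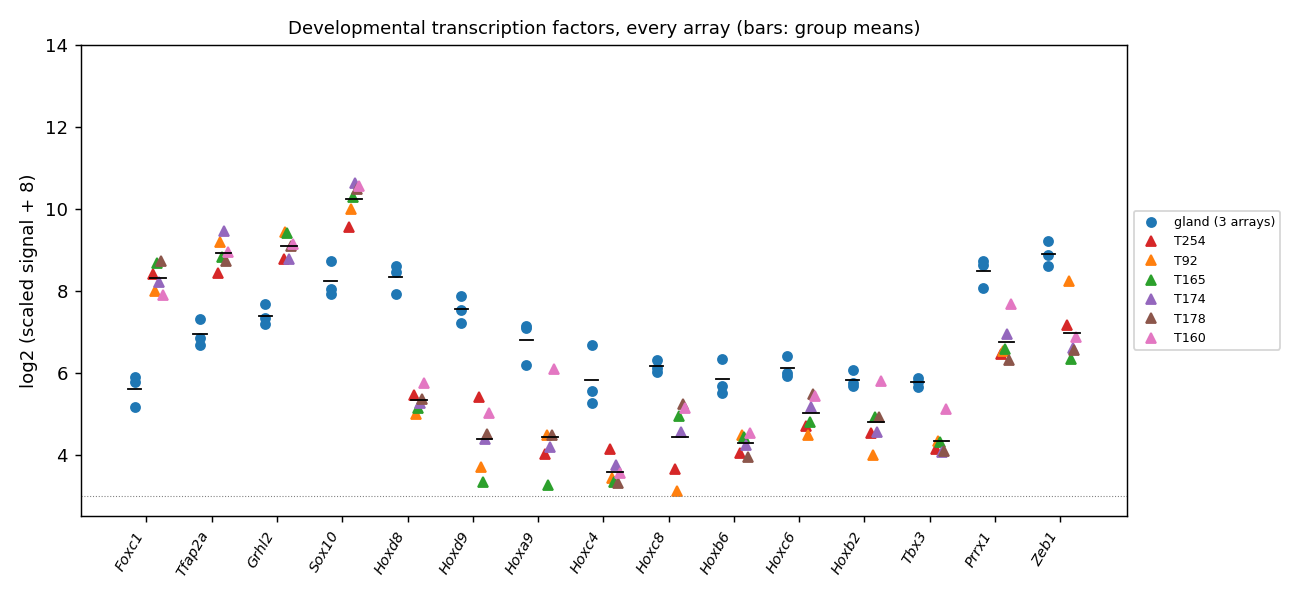
Levels of developmental transcription factors on each array, as log2 of the scaled signal plus 8, with circles for the 3 glands, triangles for the 6 tumours and bars for the group means. Foxc1 lay higher in all 6 tumours (2.71), and the 8 plotted Hox genes, those that passed, lower in all 6 except Hoxb2 in T160, Hoxd8 by -3.00.

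Genes of mitosis had the largest share of members that rose of the lists tested. The promoters of Cdk1, the kinase of mitosis, Ube2c, which marks cyclins for destruction, and Ccnb2, a cyclin of mitosis picked after its values were seen, hold the letters TTTGAA and CCAAT, which are known as the cell-cycle homology region and the CCAAT box of genes expressed late in the cycle. They are shown from 100 bases before to 25 bases after the start (RefSeq, GRCm38.p6), with both motifs in capitals in either orientation (TTCAAA and ATTGG are the reverse):
Cdk1, chr10:69352888-69353012, minus strand: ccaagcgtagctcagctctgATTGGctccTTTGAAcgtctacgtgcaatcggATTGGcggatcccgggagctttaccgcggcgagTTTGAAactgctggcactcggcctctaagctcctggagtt
Ube2c, chr2:164769829-164769953, plus strand: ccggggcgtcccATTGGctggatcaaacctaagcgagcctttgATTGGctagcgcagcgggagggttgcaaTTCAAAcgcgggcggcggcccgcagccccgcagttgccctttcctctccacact
Ccnb2, chr9:70421530-70421654, minus strand: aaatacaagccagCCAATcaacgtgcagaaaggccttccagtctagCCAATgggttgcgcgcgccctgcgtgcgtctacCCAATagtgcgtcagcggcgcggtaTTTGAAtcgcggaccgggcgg
Over 300 bases and both strands, 68.9% of 61 promoters of 56 mitosis genes hold TTTGAA, against 17.9% of all 32851 promoters and 11.8% of those of the genes tested. For CCAAT the shares were 68.9% and 37.4%, and for TTTGAA or TTTAAA 73.8% and 27.6%. A match of letters is a description, not a bound site.

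Cdk1 was at 7.28, 6.52 and 6.60 in the glands and 9.62 to 10.18 (median 9.89) in the tumours, a change of 3.08 ± 0.23 (adjusted p = 0.000138), and Ube2c at 7.44, 6.73 and 6.93 and 9.71 to 10.83 (median 10.48) (3.37 ± 0.29). Ccnb2 changed by 2.45 ± 0.30. The lowest tumour stood more than 2 log2 units above the highest gland for Cdk1 and Ube2c, and the 6 tumours lay within 1.2 units of one another. Of 66 mitosis genes 63 rose and 0 fell, median 1.97, and at least 58 rose without any 1 array. This count and those of the lists that follow stand against 16.4% of all genes higher and 15.4% lower. Plk1, a mitotic kinase, Birc5 (survivin), Spc25 and Cenph of the kinetochore, the kinase Pbk and Psrc1 of the spindle changed by 2.68 ± 0.27, 2.69 ± 0.26, 2.86 ± 0.23, 2.56 ± 0.24, 3.30 ± 0.32 and 3.52 ± 0.42, and Mki67, the proliferation marker, by 1.58 ± 0.29. Of 51 genes of DNA replication and nucleotide supply 38 rose, at least 26 without any 1 array, with Rrm2, which makes deoxynucleotides, at 2.09 ± 0.26 and Mcm5 of the replicative helicase at 1.75 ± 0.24. In the list of cyclins, G1 kinases and inhibitors 15 of 36 rose and 4 fell, 2 without gland 1 or gland 4. Skp2 and Cks1b, which mark the inhibitor p27 for removal, and Cks2, a related kinase partner, changed by 2.06 ± 0.26, 1.35 ± 0.17 and 2.25 ± 0.27, and Ccna2, cyclin A2, by 2.38 ± 0.35. 16 of 37 histone chaperones and chromatin factors rose, 8 without gland 6, with Chaf1b, which loads histones on new DNA, at 1.88 ± 0.18 and Uhrf1, which copies DNA methylation, at 1.99 ± 0.30. The repair list had 12 of 39 higher, 7 without gland 1 or gland 4 and 5 without gland 6, with Exo1 at 2.38 ± 0.31, Chek1 at 1.63 ± 0.31 and Apex1 at 1.34 ± 0.20. Exo1 and Cenph had no gland above the filter level.

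Targets of p53 and regulators of apoptosis passed at shares close to those of all genes or below them. Of all genes 16.4% rose and 15.4% fell. Here 4 of 28 p53 targets rose and 5 fell, the latter 3 without gland 1 or T165 and 2 without gland 4, and 3 of 32 apoptosis genes rose and 5 fell, 2 without gland 4. Plk2, a kinase that p53 induces, changed by 2.07 ± 0.37 and Bad, a promoter of cell death, by 1.17 ± 0.17.

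Genes that build ribosomes rose, and few genes of the ribosome itself passed. Among all genes 16.4% were higher and 15.4% lower. Of 47 genes of ribosome biogenesis and RNA polymerase I 30 rose and 0 fell, median 0.84, and 17 rose without gland 1 or without gland 6. Nhp2, of the particles that place pseudouridine in ribosomal RNA, was at 9.18, 9.19 and 9.10 in the glands and 10.53 to 11.37 (median 10.87) in the tumours (1.75 ± 0.21), and its partner Gar1, the methylase Fbl and the assembly factor Nop16 changed by 1.08 ± 0.18, 1.17 ± 0.18 and 1.54 ± 0.22. Of 39 ribosomal protein genes 1 rose, Rpl14 at 1.35 ± 0.29, with a median of 0.28, and 2 rose without T174 and 4 without T160. Of 42 aminoacyl-tRNA synthetases and translation factors 21 rose, 12 without gland 1, with Sars, Farsa, Eef1e1 and Eif4a1 at 1.31 ± 0.20, 1.24 ± 0.20, 1.27 ± 0.21 and 1.26 ± 0.21. Splicing factors rose in 18 of 49, 10 without gland 1 and 11 without gland 6, with Lsm2 at 1.52 ± 0.21. Snrpd3 was at 1.43 ± 0.19 by its brightest probe set, but its 2 other tested probe sets had changes of -1.04 and -0.52. Prmt1, which methylates arginines of RNA-binding proteins and histones, changed by 1.25 ± 0.21. Rpl14 and Eif4a1 did not pass with the Gapdh ratio. Snrpd3 did not pass with probe sets averaged per gene.

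Genes of protein folding and turnover rose as well, and the counts stand against 16.4% of all genes higher and 15.4% lower. Of 51 genes of folding and stress in the endoplasmic reticulum 21 rose and 0 fell, 10 without gland 1 or without gland 4. Ssr2, of the translocon complex, was at 8.15, 8.09 and 8.74 in the glands and 9.72 to 10.27 (median 9.99) in the tumours (1.68 ± 0.22), and the channel Sec61a1 and the disulfide isomerase Pdia4 changed by 1.25 ± 0.22 and 1.16 ± 0.21. Of 40 cytosolic and mitochondrial chaperones 19 rose, 9, 11 and 10 without gland 1, 4 and 6. The chaperonin subunits Cct2 and Cct5 and the Hsp90 partner Fkbp4 changed by 0.92 ± 0.19, 1.06 ± 0.19 and 1.41 ± 0.23. Of 35 proteasome subunits 12 rose, 3, 7 and 6 without gland 1, 4 and 6, with Psma7 at 0.95 ± 0.16. Sec61a1 and Pdia4 did not pass with the Gapdh ratio.

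Genes that burn fatty acids fell, and the counts stand against 16.4% of all genes higher and 15.4% lower. Of 37 genes of fatty acid oxidation 19 fell and 1 rose, median -0.92, and 12 fell without gland 1 or without gland 4. The count that rose was 0 without gland 4 and 2 without T254 or T174. Crat, which exchanges acetyl groups with carnitine, was at 9.26, 9.62 and 8.73 in the glands and 6.66 to 7.34 (median 6.92) in the tumours (-2.24 ± 0.24, adjusted p = 0.000395). Hadhb of the trifunctional protein and Decr1 changed by -1.74 ± 0.27 and -1.51 ± 0.23, and Abcd2, a peroxisomal transporter, by -3.35 ± 0.45. Abcd2 had no tumour above the filter level. Of 27 genes of the citrate cycle 12 fell and 0 rose, but 3 fell without gland 1 or without gland 4. Ogdh was at 10.66, 10.81 and 9.84 in the glands and 8.53 to 8.82 (median 8.65) in the tumours (-1.78 ± 0.23), Sucla2 changed by -1.40 ± 0.24 and Fh1, fumarase, by -0.98 ± 0.22. Muscle and fat, which are rich in these enzymes, fell beside them, and their part in these changes was not tested. Sucla2 and Fh1 did not pass with the Gapdh ratio. Decr1, Ogdh, Sucla2 and Fh1 did not pass in a test of each gene alone with unequal variances.

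Genes of cholesterol synthesis rose, and those of fatty acid synthesis went both ways. Of 20 genes of cholesterol synthesis 10 rose, against 16.4% of all genes, and 0 fell, with 5 higher without gland 1 or gland 4 and 6 without gland 6. Fdps, which makes farnesyl diphosphate, was at 7.09, 6.94 and 7.32 in the glands and 9.41 to 10.64 (median 9.71) in the tumours (2.75 ± 0.29, adjusted p = 0.000395), and Sqle, squalene epoxidase, Dhcr7, which forms cholesterol, and Stard4, a sterol carrier, changed by 2.45 ± 0.34, 1.32 ± 0.31 and 1.23 ± 0.21. In fatty acid synthesis, elongation and desaturation 5 of 39 genes rose and 8 fell, against 16.4% and 15.4% of all genes. The count of higher genes was 2 without gland 1 or T174, 1 without gland 4 or gland 6 and 3 without T165 or T160, and that of lower genes 5 without gland 1 or gland 4 and 4 without gland 6. Fasn, fatty acid synthase, was at 12.02, 11.67 and 11.96 in the glands and 8.98 to 11.51 (median 9.44) in the tumours, T178 highest (-2.15 ± 0.48), and the elongase Elovl6 and the sugar-sensing factor Mlxipl changed by -2.31 ± 0.30 and -3.57 ± 0.51. Scd2, a desaturase, moved the other way, from 10.09, 9.88 and 9.85 in the glands to 11.44 to 11.90 (median 11.68) in the tumours (1.74 ± 0.18, adjusted p = 0.000341). White adipocyte genes, of which 32 of 44 fell, stand beside the falls of Fasn, Elovl6 and Mlxipl, and their part in these falls was not tested. Dhcr7 and Fasn did not pass with the actin ratio as a covariate, nor Stard4 and Fasn with the Gapdh ratio.

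In amino acid metabolism 13 of 41 genes rose and 2 fell, with 7 higher without gland 1, 8 higher without gland 4 and 1 lower without either. These counts, and those of glycolysis below, stand against 16.4% of all genes higher and 15.4% lower. Psat1, of serine synthesis, was at 8.01, 7.43 and 7.92 in the glands and 9.83 to 10.55 (median 10.37) in the tumours, a change of 2.48 ± 0.23 (adjusted p = 0.000276). Srm, which makes the polyamine spermidine, changed by 1.65 ± 0.25 and Slc6a14, an amino acid transporter, by 2.43 ± 0.42. Slc1a5, the glutamine transporter ASCT2, went against the list, from 9.86, 10.45 and 10.29 in the glands to 6.75 to 8.59 (median 7.76) in the tumours (-2.51 ± 0.46, adjusted p = 0.00304). Of 40 genes of glycolysis and hypoxia 13 rose, 7 without gland 1 or gland 4 and 6 without gland 6, and 5 fell, 3 without gland 4. Slc2a1, the glucose transporter GLUT1, Egln3, an oxygen sensor, and Pgam1 changed by 1.81 ± 0.28, 2.64 ± 0.42 and 1.57 ± 0.24, and Pfkm, the muscle phosphofructokinase, by -3.65 ± 0.45. Tfrc, the transferrin receptor that brings in iron, rose by 1.66 ± 0.30 and Mt2, a metallothionein, by 2.60 ± 0.51. Mt2 did not pass with the Gapdh ratio. Tfrc did not pass with probe sets averaged per gene, nor Mt2 in a test of each gene alone with unequal variances.

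Matrix genes changed in both directions, as did all genes, with 16.4% higher and 15.4% lower. Of 35 collagens and collagen-processing genes 10 rose and 0 fell, 5 without gland 4 and 6 without gland 6. Col1a1, the main fibrillar collagen, was at 7.75, 7.19 and 7.12 in the glands and 8.43 to 10.84 (median 9.37) in the tumours (2.12 ± 0.49), Col12a1, which lies on collagen fibrils, changed by 2.91 ± 0.54, and the crosslinking enzyme Lox and the prolyl hydroxylase subunit P4hb by 1.65 ± 0.38 and 0.96 ± 0.19. Of 45 fibroblast and matrix glycoproteins 14 fell and 9 rose, with 6 lower without gland 1, 8 lower without gland 4 and 4 higher without any 1 gland. Dpt, dermatopontin, and Ogn, osteoglycin, small proteins of resting stroma, changed by -2.57 ± 0.48 and -2.32 ± 0.36. Gsn, which severs actin, changed by -2.16 ± 0.37, with 3 of its 4 other tested probe sets in the same direction. Lama5, a laminin of epithelial basement membrane, rose by 1.72 ± 0.32. Of the inhibitors of matrix proteases Timp1 rose by 2.45 ± 0.59 and Timp4 fell by 2.84 ± 0.53. Timp1 lost its call without gland 1 (adjusted p = 0.0531). Epha1, a receptor of epithelium, Sdc4, a syndecan, and the annexins Anxa1 and Anxa2 changed by 2.11 ± 0.31, 1.38 ± 0.26, 1.39 ± 0.24 and 1.41 ± 0.23. Col1a1, Lox and P4hb did not pass with the actin ratio as a covariate, nor P4hb and Timp1 with the Gapdh ratio, nor Lox, Gsn, Lama5 and Timp4 in the fit of all 16 arrays. P4hb did not pass in a test of each gene alone with unequal variances.

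Endothelial genes fell, and macrophage genes passed in either direction at shares below those of all genes. Of 28 endothelial genes 21 fell and 0 rose, median -1.23, and at least 18 fell without any 1 array. Kdr, the VEGF receptor, was at 8.07, 7.69 and 8.21 in the glands and 5.61 to 6.11 (median 5.75) in the tumours (-2.18 ± 0.19, adjusted p = 0.00027), and Egfl7, Nos3 and Aplnr, all of endothelium, changed by -1.86 ± 0.23, -1.38 ± 0.18 and -1.84 ± 0.24. Rgs5 of pericytes and Myh11 of smooth muscle changed by -1.35 ± 0.26 and -2.71 ± 0.30. Of 30 macrophage genes 4 rose, 2 without gland 4, and 4 fell, against 16.4% and 15.4% of all genes. Trem2, a lipid-sensing receptor, was at 4.23, 3.80 and 3.57 in the glands and 4.91 to 7.46 (median 6.67) in the tumours (2.49 ± 0.55), and Lgals3, galectin 3, at 9.41, 9.35 and 9.19 and 9.79 to 12.08 (median 11.42) (2.00 ± 0.44). Trem2 had no gland above the filter level. Lyve1, of resident macrophages and lymph vessels, changed by -3.15 ± 0.56. Irf8, a factor of myeloid and B cells, the coagulation regulator Thbd and complement C6 changed by -2.96 ± 0.53, -2.01 ± 0.26 and -2.98 ± 0.57. Lgals3 did not pass with the actin ratio as a covariate, nor Rgs5 and Trem2 with the Gapdh ratio, nor Trem2 in the fit of all 16 arrays. Rgs5 did not pass with probe sets averaged per gene.

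The 6 tumours differed among themselves more than the glands did. The median standard deviation of a gene was 0.42 over the tumours and 0.25 over the glands, and it was larger in the tumours for 7189 of 9006 genes. Among genes above the median level, chosen for their spread over the tumours and given as a description, Cel, a lipase of milk and pancreas, ran from 4.41 to 12.17 and Wap from 4.64 to 13.16, each lowest in T165 and T160. Met, the receptor of hepatocyte growth factor, was at 12.10, 10.78 and 11.75 in T165, T174 and T160 and at 8.97, 6.57 and 6.13 in T178, T254 and T92. The same 3 tumours, T165, T174 and T160, had the highest levels of Krt14 (9.40, 9.77 and 11.17), Krt6a (9.55, 9.87 and 11.83) and Socs2 (10.70, 11.53 and 11.27). Krt6a, a keratin of stressed epithelium, changed by 3.87 ± 1.30 over all tumours but did not pass with any 1 gland, T165 or T174 left out (adjusted p up to 0.129) or under the deposited scaling. Igf2, a fetal growth factor, was at 11.88 and 12.73 in T254 and T92 and at 6.35 to 9.43 in the others, and Alox12e, a lipoxygenase, at 11.23, 11.58 and 11.42 in T254, T92 and T160 and below 7 in the others. Chil1 was highest in T174 and T160, at 12.42 and 11.30. Saa1, Igk, Fcgbp, Pigr, Tspan8 and Gjb2, the other genes of this set, had standard deviations of 2.41 to 2.66. Krt6a did not pass with the actin ratio as a covariate, with the Gapdh ratio or in the fit of all 16 arrays. Krt6a did not pass with probe sets averaged per gene, with an offset of 35.4 or without the filter.

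**Figure D5:**
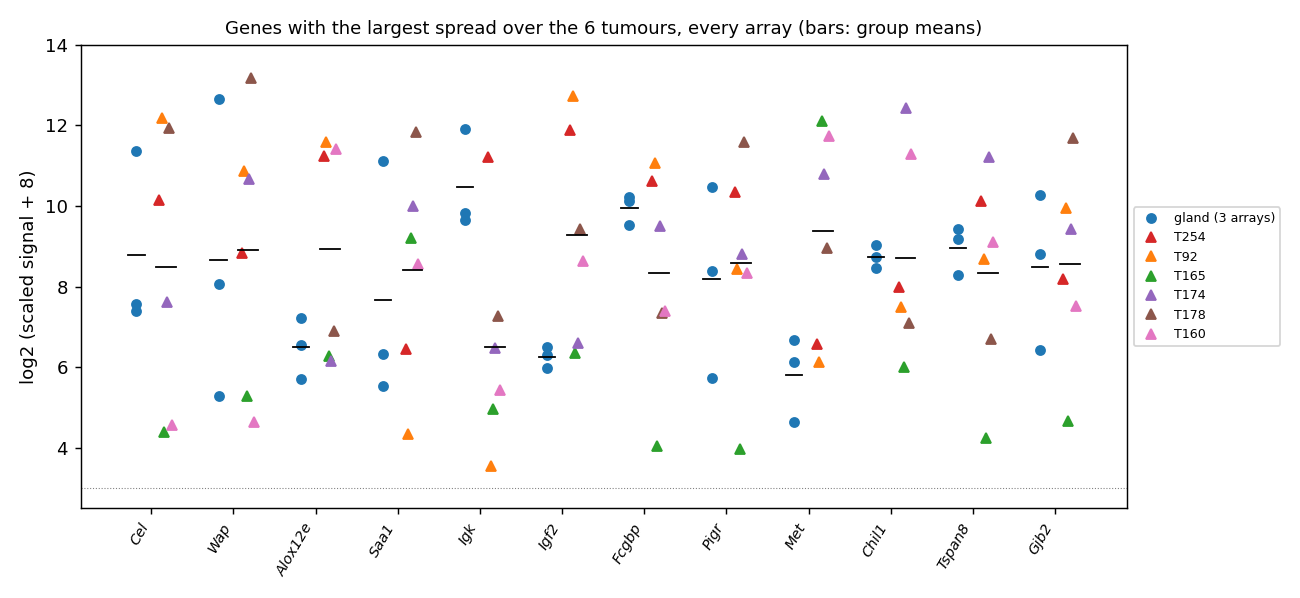
Levels of the 12 genes with the largest standard deviation over the 6 tumours among genes above the median level, on each array, as log2 of the scaled signal plus 8, with circles for glands, triangles for tumours and bars for group means. Met was highest in T165, T174 and T160, and Igf2 in T254 and T92.

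The STAT5Δ750 tumours were also compared with the 7 STAT5ca tumours of the series, in a fit of all 16 arrays. No gene passed: 0 of 9006 (0%) by limma, with 740 at an unadjusted p under 0.05, and 518 to 1026 under the alternatives, none of which gave a passing gene. The array of STAT5ca_177 stood apart, with a mean correlation of 0.662 with its group, and without it the unadjusted count was 951. For the genes above the difference, STAT5Δ750 minus STAT5ca, was 0.16 ± 1.06 for Mmp13, 0.45 ± 0.58 for Foxc1, 0.21 ± 0.27 for Hoxd8, 0.19 ± 0.29 for Cdk1, -0.64 ± 0.28 for Stat5b and 0.13 ± 0.35 for Tmem45b (log2 ± SE). That none passed does not show that the tumours are alike.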

How the data were processed

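The deposited values were microarray signal intensities, made by the authors with MAS5, per the submitters' processing notes, which name no version; how each array was scaled there is not given in the sources used here. GEO's platform annotation, which can be old, pairs 20393 of 22690 probe sets with 1 gene symbol, and the others, 691 with several symbols and 1606 with none, were left out.

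The 9 arrays were scaled to a common median of 76.6, and log2 of the signal plus 8 was taken. Probe sets above 35.4, the 40th percentile of the deposited intensities, on at least 3 of the 9 arrays were kept, and the brightest stood for its gene. The test was that of limma (3.58.1, R 4.3.3; lmFit and eBayes, 7 residual degrees of freedom), with Benjamini-Hochberg adjustment over 9006 genes. Arrays carry no read depth, and their number limits the precision. On data simulated from these arrays for the tumour and gland comparison, over 9006 genes, 31% of 2-fold and 76.6% of 4-fold changes were recovered, and 4.44% of calls were false. The simulation changed 200 genes per draw and gave both groups the same spread. In the data 31.7% of genes passed and the tumours spread more than the glands, so these rates may not hold for the real comparison.

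Named genes were the 20 largest rises and 15 largest falls and the 10 of each with the smallest p, among called genes whose groups did not overlap, up to 4 called members of each list by p, 18 genes given whatever their value, and the 12 with the largest spread over the tumours; genes of muscle, fat, T and B cells were left out. The comparison, the 68 lists and these genes were chosen with earlier results of these data known. The alternatives were other offsets, filters, scalings, probe set rules, variance models and tests, array weights, both RNA ratios as covariates, all 16 arrays, and each array left out. The fit without STAT5ca_177 was chosen after seeing the data. Promoters came from RefSeq (GRCm38.p6), matched by symbol.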

Additional observations from a re-analysis of the deposited data

Results flagged for a closer look

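In 207 of the named genes the 6 tumours were searched for 1 array far from the others, by the gap to its nearest neighbour over the whole range with a critical value of 0.625. Chance flags about 1 in 20 groups, and here 10 of 207 genes were found, close to that rate, so they are given as a description. T254 held 6 of these 10, most of them genes of lymphoid tissue. On the log2 scale Birc3 was at 9.02 there, with the nearest tumour at 8.01. Ccr7 was at 6.80 (nearest 3.43), Cd209b at 9.41 (3.69), H2-Ea at 6.88 (5.52), Marco at 8.41 (3.17) and Tnfrsf13b at 7.69 (5.73). T178 held 3. Fasn was at 11.51 there (nearest 9.78) and Ogn at 6.99 (5.81), both above the other tumours, and Lgals3 at 9.79 (11.23), below them. T160 held Tbx3, at 5.11 with the nearest tumour at 4.33.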

How the results depend on the processing

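Of 200 named genes that passed, those that kept their call are counted here. They were 197 with the deposited scaling, 199 with quantile normalization, 168 in the fit of all 16 arrays, all but 26 with the actin ratio as a covariate and 147 with the Gapdh ratio. The number of genes that passed was 1839 in the fit of all 16 arrays, 2463 in that fit without STAT5ca_177, 1095 with the Gapdh ratio and 1913 with the actin ratio. The actin ratio separated the groups fully, so that ratio and group cannot be told apart well. Leaving out 1 array gave 1684 to 2862 genes, lowest without gland 4 and highest without T254. The other scalings, offsets, filters, the probe set mean, the variance trend and the test of each gene alone gave 2273 to 2965, and array weights 4261. Against STAT5ca the count was 0 in every alternative run.

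None of Csn2, Elf5 and Wap passed, and their signs turned. Wap was at -0.47 with the actin ratio and -2.30 with the Gapdh ratio, and from -1.45 to 2.24 with 1 array left out, below 0 also without gland 1 (-0.06), T92 (-0.15), T174 (-0.11) and T178 (-0.61). Csn2 was at -0.17 with the Gapdh ratio and from -0.015 to 0.33 with 1 array left out, and the change of Elf5 was -0.048 with the Gapdh ratio. The change of Snrpd3 was -0.042 as the mean of its probe sets, which move apart. The causes of the other turns were not tested. No paired analysis was possible because the tumours and glands share no replicate number. Signals near the filter level limit the size of the changes given for genes that were dim in either group. Among these, besides those marked above, Rxrg had no tumour above that level. Slc6a14, Epha1, Stard4, Gpx2 and Krt6a had no gland above it.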

Other observations

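MHC class II genes, which present antigens and are strong in B cells, dendritic cells and macrophages, fell by unequal amounts. H2-Ea was at 11.01, 8.64 and 10.72 in the glands and 4.88 to 6.88 (median 5.27) in the tumours (-4.63 ± 0.56, adjusted p = 0.000623 by limma). H2-Aa was at 11.66, 12.30 and 11.76 in the glands and 8.93 to 11.45 (median 10.26) in the tumours (-1.72 ± 0.59, adjusted p = 0.0487), and H2-Ab1 changed by -1.89 ± 0.63. H2-Aa and H2-Ab1, picked after their values were seen, lost their calls when any 1 gland, T92, T174 or T178 was left out, H2-Aa also without T165. H2-Aa and H2-Ab1 did not pass with the actin ratio as a covariate, with the Gapdh ratio or in the fit of all 16 arrays. H2-Aa and H2-Ab1 did not pass with an offset of 1 or without the filter. Of 20 genes of antigen presentation 9 were lower, against 15.4% of all genes, and 4 without gland 4. B cell genes fell beside them in 24 of 31. The difference between the H2-E and H2-A genes was not tested.

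Gland 6 was the highest of the 3 glands in several secretory genes. Saa1, an acute phase protein, was at 11.11 there and at 6.33 and 5.54 in glands 1 and 4, Cel at 11.37 against 7.58 and 7.39, and Pigr, which carries antibodies into milk, at 10.46 against 8.39 and 5.75. The reproductive stage of the glands is not given in the sources used here.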
